A study of Mus musculus with 2 samples.

Results

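Melanin is made inside melanosomes, organelles of melanocytes that mature from a fibrous, unpigmented stage to a pigment-filled one. The enzymes tyrosinase (*Tyr*), tyrosinase-related protein 1 (*Tyrp1*) and dopachrome tautomerase (*Dct*) convert tyrosine to melanin, and *Tyr* catalyses the rate-limiting step. The fibrils on which melanin is laid down are made of PMEL (*Pmel*), and its processing involves MLANA (*Mlana*), a small melanosomal membrane protein. *Gpr143* encodes the ocular albinism receptor, which sits in the melanosome membrane and affects melanosome size, and *Gpnmb* encodes a glycoprotein related to PMEL that is also made by macrophages and other non-pigment cells. These 7 genes, 3 enzymes and 4 matrix or membrane proteins, were taken by name from the 32285 genes counted in each library, and all 7 were detected in both. In the hair follicle, melanocyte stem cells (McSCs) activate many pigmentation genes as a new growth phase (anagen) begins, and mature melanocytes in the hair bulb use them to pigment the hair. *Dct* differs in that the study describes it as a lineage marker already present in McSCs of the resting phase. No resting-phase cells were among the libraries used here.

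Each of the 2 conditions was a single droplet library of GFP+ cells sorted from Dct-rtTA; tetO-H2B-GFP mice of mixed background and either sex after 4 days on doxycycline chow, with the cells of 4 mice combined. Early-anagen McSCs came from mice depilated at 8 weeks of age and collected on day 4 after depilation (trypsin dissociation, version 3 chemistry). Mature bulb melanocytes came from mice at 5 weeks of age in anagen VI, from microdissected bulbs treated with EDTA and then with collagenase and dispase (version 2 chemistry). The *Dct* promoter drove the reporter behind the sort, and *Dct* was also used to choose cells, so the presence of *Dct* in every cell is no finding. The part of the sort in the level, share and spread of *Dct*, and in its ratio between the libraries, was not tested. No depilation is described for the bulb mice. The condition cannot be told apart from age, depilation, the part of the skin taken, dissociation, chemistry or depth, which all differed between the libraries. With 1 library per condition there was no replicate check and no test between conditions. The intervals given here are exact 95% intervals that cover counting error only, and mouse-to-mouse spread is unknown.

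Cells were kept when they held at least 1 *Dct* unique molecular identifier (UMI), fewer than 3 UMIs of *Krt10* and *Krt14* together, less than 5% mitochondrial UMIs, and over 10000 UMIs in early anagen or over 5000 in the bulb. This left 2785 of 11010 early-anagen barcodes (median 24528 UMIs, 10th to 90th percentile 13198 to 44676) and 3734 of 4327 bulb barcodes (median 14286.5 UMIs, 9605 to 21264). The libraries shared 1 barcode. All 6 melanocyte markers outside the 7 genes (*Mitf*, *Sox10*, *Kit*, *Pax3*, *Ednrb*, *Slc45a2*) had a UMI in more than 50% of the selected cells of both libraries. Summed epidermal markers stood at 43.6 counts per 1000000 UMIs (CPM) in early anagen and 32.3 in the bulb, hair matrix and cortex markers at 2.77 and 10.8, immune markers at 16.7 and 7.59, fibroblast markers at 1.31 and 0.823, and endothelial markers at 0.211 and 0.0358. The epidermal sum includes *Krt10* (13.1 and 16.2 CPM) and *Krt14* (3.01 and 0.0716 CPM). The selection itself limits these 2 genes, so their low level is no finding. A small number of selected cells, 2 in early anagen and 17 in the bulb, held at most 1 UMI of the 6 melanocyte markers. Some results were computed again without these marker-poor cells. Both values are given for the bulb medians of spread and correlation and for *Gpnmb* in the bulb. Other values are mostly those of all selected cells. The part of other cell types in the remaining results was not tested.

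Promoter sequences were matched for *Tyr*, *Tyrp1*, *Dct* and *Gpnmb* in RefSeq (build GRCm38.p6). *Pmel*, *Mlana* and *Gpr143* had no promoter among the sequences used and were not searched. *Gpnmb* was thus the only gene searched that is not an enzyme gene, so enzymes and matrix or membrane genes cannot be compared. The letters CATGTG, known as a form of the E-box that MITF binds, were searched on both strands in the 250 bases before each annotated start. They were present for 3 of these 4 genes, all enzymes, and in 12.3% of 32851 promoters of the same length. The longer strings TCATGTG and TCATGTGCT, which contain it, were present in 3.25% and 0.335% of promoters. The 30 bases around the match in each enzyme gene are shown because the 3 enzymes shared these letters, with CATGTG in capitals and each sequence read in the direction of its gene.

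Tyr: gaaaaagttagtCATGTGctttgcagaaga
Tyrp1: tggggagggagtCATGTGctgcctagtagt
Dct: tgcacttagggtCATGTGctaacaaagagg

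The *Tyr* stretch lies at chr7:87493516-87493545 on the minus strand, with the capitals 21 to 16 bases before the start. That of *Tyrp1* lies at chr4:80834155-80834184 on the plus strand, 46 to 41 bases before the RefSeq start and inside an exon of the longer GENCODE model. That of *Dct* lies at chr14:118052379-118052408 on the minus strand, 150 to 145 bases before the start, and the *Dct* promoter held CATGTG at 2 places. All 3 carried TCATGTGCT, a string within the element known as the M-box. None of these strings was found in the 250 bases before *Gpnmb*. A match is a description of letters and not of a bound site.

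The first comparison asked how far each gene stood from its bulb level in McSCs that had just entered anagen. Each of the 7 genes was at least 2-fold higher in the bulb, and their median log2 ratio was 1.71. Among the 8020 genes with at least 10 CPM in either library, 16.3% were at least 2-fold higher and 28.7% at least 2-fold lower, and the median ratio was -0.19. A UMI marks 1 transcript end, so levels of different genes can be set side by side without dividing by length.

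*Tyr* (ENSMUSG00000004651, chr7:87424771-87493512, minus strand) stood at 572 CPM in early anagen and 1871 CPM in the bulb. Its log2 ratio was 1.71 (95% interval 1.69 to 1.73), a 3.27-fold difference. In both libraries *Tyr* was the least abundant of the 3 enzymes by a wide margin. *Tyrp1* (ENSMUSG00000005994, chr4:80834123-80851719, plus strand), whose product stabilises tyrosinase and acts late in eumelanin synthesis, stood at 5333 and 13524 CPM, a log2 ratio of 1.34. *Dct* (ENSMUSG00000022129, chr14:118012790-118052244, minus strand), which isomerises dopachrome and is expressed early in the lineage, stood at 7799 and 15879.5 CPM. The *Dct* log2 ratio of 1.03 (1.02 to 1.03) was the smallest of the 7. At 2.04-fold it lay just past the 2-fold limit, and it fell short of it under 6 of 13 alternative settings, down to a log2 ratio of 0.73 among cells scored G1. That score could not be used as a measure of phase in the bulb, as given below.

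*Pmel* (ENSMUSG00000025359, chr10:128704195-128720238, plus strand) stood at 4316 CPM in early anagen and 15240 CPM in the bulb, a log2 ratio of 1.82. *Mlana* (ENSMUSG00000024806, chr19:29697824-29708634, plus strand) stood at 5565 and 20325 CPM, a log2 ratio of 1.87. The fibril protein and its membrane partner thus differed between the libraries by almost the same factor, 3.53 and 3.65. *Gpnmb* (ENSMUSG00000029816, chr6:49036546-49070929, plus strand) stood at 1000.2 and 3259 CPM, a log2 ratio of 1.70. *Gpr143* (ENSMUSG00000025333, chrX:152781921-152808646, plus strand) stood at 59.7 CPM (58.0 to 61.5) in early anagen and 730 CPM (723 to 737) in the bulb. Its log2 ratio of 3.61 (3.57 to 3.66), or 12.2-fold, was the largest of the 7, and 59 of the 8020 genes had a larger one.

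**Figure D1:**
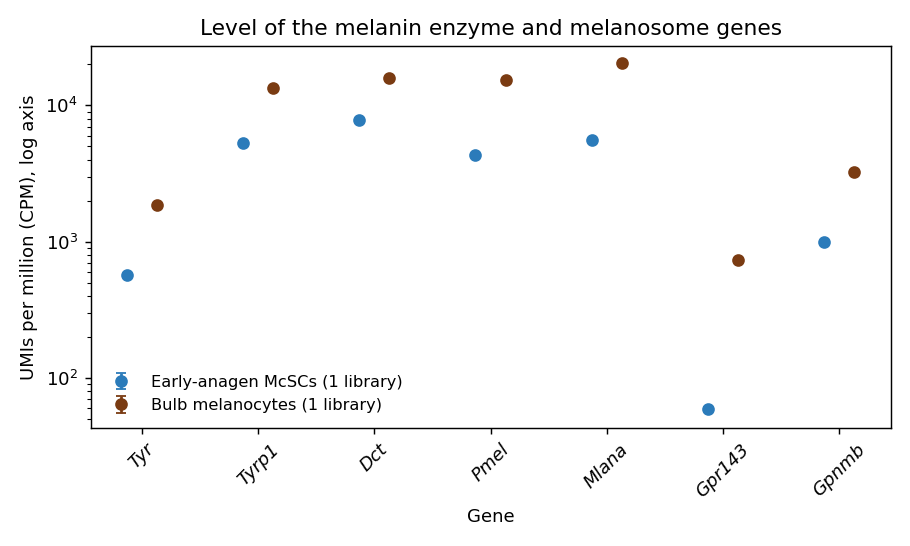
Level of each gene in the selected cells of the early-anagen library (blue) and the bulb library (brown), in CPM on a log axis. Points are sums over cells and bars are exact 95% counting intervals, mostly smaller than the points. All 7 genes are higher in the bulb, *Dct* by 2.04-fold and *Gpr143* by 12.2-fold.

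The order of the levels changed as well. In early anagen it was *Dct*, *Mlana*, *Tyrp1*, *Pmel*, *Gpnmb*, *Tyr* and *Gpr143*, and *Dct* was the gene with the second highest count of all 32285. In the bulb it was *Mlana*, *Dct*, *Pmel*, *Tyrp1*, *Gpnmb*, *Tyr* and *Gpr143*, and the first 4 of these ranked 2, 4, 5 and 6 among all genes. *Gpr143* moved from rank 2442 to rank 231. Neighbours in these orders had counting intervals that did not overlap, but whether close neighbours, such as *Mlana* and *Tyrp1* in early anagen, would keep their order in other mice was not measured.

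Bulb cells held fewer UMIs, so the difference per cell was smaller than in CPM. The log2 ratio of mean UMIs per cell, bulb over early anagen, was 2.75 for *Gpr143*, 1.01 for *Mlana*, 0.96 for *Pmel*, 0.85 for *Tyr*, 0.84 for *Gpnmb*, 0.48 for *Tyrp1* and 0.16 for *Dct*. For *Dct* this was a mean of 237.7 UMIs in a bulb cell and 212 in an early-anagen McSC, the smallest difference of the 7. UMIs per cell also depend on sequencing depth and on the UMI minimum, which was 10000 in early anagen and 5000 in the bulb. Of the 3734 bulb cells, 446 held under 10000 UMIs. These values are therefore no measure of the transcripts present in a cell. The part of the chemistry, the depth and the minimum in this was not tested.

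Together the 7 genes took 2.46% of the early-anagen UMIs and 7.08% of the bulb UMIs. Per cell, the share had a median of 2.43% (10th to 90th percentile 1.22 to 4.14) in early anagen and 7.16% (5.29 to 8.66) in the bulb, and these ranges did not overlap. Within the 7, the enzymes supplied 55.6% of the UMIs in early anagen and 44.2% in the bulb. *Dct* alone went from 31.6% to 22.4% of the 7, whereas *Mlana* went from 22.6% to 28.7% and *Pmel* from 17.5% to 21.5%. Among the 3 enzymes, *Tyr* supplied 4.17% of the UMIs in early anagen (4.13 to 4.21) and 5.98% in the bulb (5.95 to 6.02), *Tyrp1* 38.9% and 43.2%, and *Dct* 56.9% and 50.8%. In these cells, sorted through a *Dct* reporter, the mix of transcripts in the bulb was thus richer in the matrix and membrane protein genes as a group and poorer in *Dct*. The part of the sort in this was not tested.

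How widely the genes were detected was compared after thinning every cell to 5000 UMIs. *Tyrp1*, *Dct*, *Mlana*, *Pmel* and *Gpnmb* each had a UMI in nearly all cells of both libraries, the lowest share being 97.5% for *Gpnmb* in early anagen. *Tyr* had one in 85.9% of early-anagen cells (84.6 to 87.2) and 99.5% of bulb cells. *Gpr143* had one in 21.8% of early-anagen cells (20.2 to 23.3) and 95.3% of bulb cells (94.6 to 96.0). With all UMIs counted, *Gpr143* was found in 56.4% and 99.1% of cells and *Tyr* in 98.7% and 99.7%. *Gpr143* was therefore the single gene of the 7 without a UMI in a large share of early-anagen McSCs at either depth.

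Cells that passed the UMI and mitochondrial limits but held at most 1 UMI of the 6 melanocyte markers served as a comparison for UMIs of these genes outside melanocytes. In early anagen there were 56 such cells (median 30393 UMIs), with keratinocyte genes high (*Krt14* at 9455 CPM). *Dct* had a UMI in 31 of them, *Mlana* in 28, *Tyrp1* in 27, *Pmel* in 25, *Gpnmb* in 11, *Tyr* in 2 and *Gpr143* in none, where a count of 0, taken as a limit of 3 counts over the 56 cells, allows up to 1.45 CPM. Their levels were 0 to 24.6 CPM, at most 0.915% of those in the selected cells. In the bulb library there were 39 such cells (median 10668 UMIs), and 6 of the 7 genes were again low, between 4.84 CPM for *Gpr143* and 135 CPM for *Mlana*, or 0.537% to 0.905% of the selected cells.

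*Gpnmb* departed from this. In the 39 marker-poor bulb cells it stood at 7702 CPM (7437 to 7974), which is 236% of its level in the selected melanocytes. It had a UMI in 35 of the 39 cells, a higher count than the other 6 genes together in 31, and a CPM above the selected cells' median of 3168 in 30. Of genes known from hair follicle and epidermal epithelium, *Sfn* had a UMI in all 39 cells (3227 CPM), *Msx2* in 36 (506 CPM) and *Krt27* in 25 (186 CPM). Others were rarer, with *Krt10* in 20 cells, *Krt14* in 12, *Krt5* in 11, *Krt35* in 6 (1197 CPM), *Krt25* in 5, *Krt71* in 2 and *Krt1* in none. Of the immune markers, *Ptprc* and *Cd3e* were at 0 and *Cd52*, *Lyz2* and *Cd74* each had a UMI in 1 cell. *Gpnmb* was thus high in bulb cells with almost no melanocyte marker UMIs, whereas in the early-anagen marker-poor cells it stood at 9.16 CPM. Of the 39 cells, 17 passed the selection. Without them *Gpnmb* in the bulb was 3238 CPM in place of 3259.

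The next question was how evenly the genes were expressed among the cells of a library. In cells thinned to 5000 UMIs, *Mlana* had a median of 25 UMIs in early anagen (10th to 90th percentile 9 to 50) and 102 in the bulb (73 to 131). *Pmel* had a median of 19 (4 to 45) and 75.5 (36 to 112), *Dct* 39 (17 to 70) and 79 (48 to 109), and *Tyrp1* 26 (13 to 45) and 68 (46 to 90). *Mlana* and *Tyrp1* were the genes of these 4 whose early-anagen 90th percentile stayed below the bulb 10th percentile, while for *Dct* and *Pmel* the ranges overlapped. *Tyr* had a median of 2 UMIs (0 to 6) and 9 (5 to 14), *Gpnmb* 5 (1.4 to 10) and 16 (9 to 24), and *Gpr143* 0 (0 to 1) and 3 (1 to 7).

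**Figure D2:**
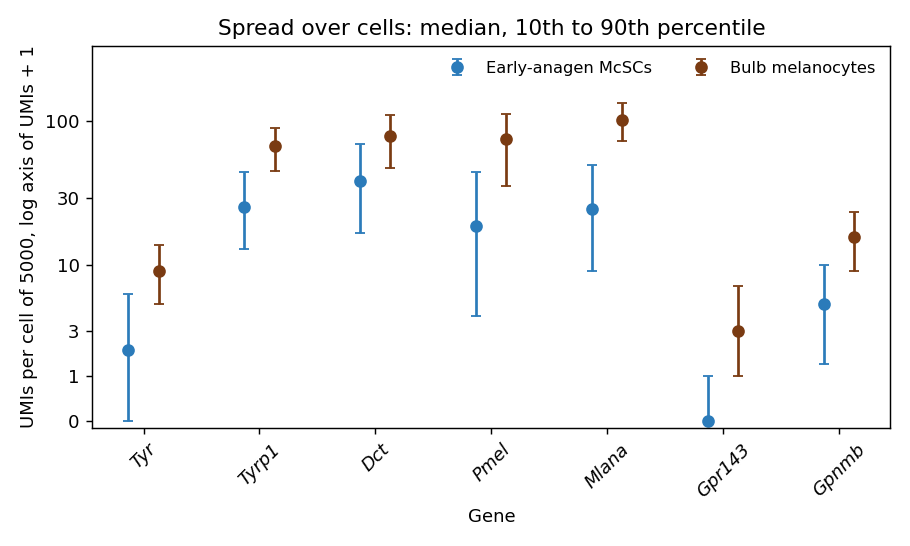
UMIs of each gene per cell after every cell was thinned to 5000 UMIs, on a log axis of UMIs + 1. Points are medians over 2785 early-anagen cells (blue) or 3734 bulb cells (brown), and bars run from the 10th to the 90th percentile. Relative to the median, *Pmel* spans the widest range of the 4 most abundant genes in early anagen, 4 to 45 UMIs, and *Mlana* the narrowest in the bulb, 73 to 131.

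The spread beyond counting noise was expressed as the extra-Poisson coefficient of variation (CV), the square root of variance minus mean, divided by the mean. All 7 genes had a smaller CV in the bulb than in early anagen, and the median over the 7 was 0.29 against 0.54. The share of all genes with a smaller CV in the bulb was not counted, so only medians over all genes stand beside this. For genes with at least 1 UMI per cell the median CV was 0.303 in early anagen (733 genes) and 0.219 in the bulb (836 genes). For genes with at least 5 UMIs per cell, a level that 5 of the 7 reached in early anagen, it was 0.199 (150 genes) and 0.217 (164 genes), so the direction over all genes depended on this minimum. Among the abundant genes of the 7, *Pmel* was the most variable in both libraries. Its CV was 0.711 in early anagen and 0.383 in the bulb. Of genes with at least 1 UMI per cell, 6.55% and 14.6% exceeded it. *Mlana* went from 0.544 to 0.213, the lowest of the 7 in the bulb, where 50.7% of such genes exceeded it. *Tyrp1* was the least variable enzyme in both, at 0.406 and 0.242, while *Dct* stood at 0.472 and 0.291 and *Tyr* at 0.608 and 0.264.

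*Gpr143* had a CV of 1.27 in early anagen and 0.309 in the bulb, the former resting on a mean of only 0.301 UMIs per cell. *Gpnmb* went from 0.474 to 0.302 with all selected cells and to 0.253 without the 17 marker-poor bulb cells. The median over the 7 in the bulb was 0.25 without those cells. Early-anagen McSCs thus varied more among themselves in each of these genes than bulb melanocytes did, for cells of 1 library each. Whether this is particular to these genes was not tested.

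Whether the genes varied together was described by the correlation over cells after the counting noise was removed from the variances. The points are cells of 1 library at equal depth and are not replicates. Over the 21 pairs the median correlation was 0.61 in early anagen (range 0.12 to 0.78) and 0.27 in the bulb (-0.06 to 0.61). Pairs of other genes with at least 5 UMIs per cell had a median of 0.138 and 0.018, and 16.5% and 21.5% of those pairs exceeded the median of the 7. Among cells scored G1 the medians were 0.61 and 0.26, but the phase scores could not be used in the bulb, as given below. The bulb value is therefore no check of phase.

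In early anagen the closest pair was *Dct* and *Pmel* at 0.78, followed by *Tyrp1* and *Dct* at 0.73 and *Tyr* and *Pmel* at 0.70. *Pmel* followed the summed UMIs of the other 6 most closely, with a correlation of 0.84, then *Tyr* at 0.80, *Dct* at 0.78, *Tyrp1* at 0.74 and *Gpr143* at 0.71. *Mlana* at 0.58 and *Gpnmb* at 0.39 followed least, and the *Mlana* and *Gpnmb* pair had the lowest value, 0.12. The enzymes and the fibril protein therefore varied together from cell to cell more than *Gpnmb* did with any of them.

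In the bulb the closest pairs were *Tyrp1* and *Dct* at 0.61, *Dct* and *Pmel* at 0.59 and *Tyrp1* and *Pmel* at 0.51. *Tyr*, which in early anagen was as close to *Pmel* as to *Dct*, had 0.43 with *Tyrp1*, 0.41 with *Dct* and 0.23 with *Pmel*. *Mlana* had at most 0.27 with any other gene, and at most 0.23 without the 17 marker-poor cells, although it was the most abundant of the 7. The 6 pairs with *Gpnmb* ranged from -0.06 to 0.19 over all selected cells. Without the 17 marker-poor cells each of these 6 was higher and they ranged from 0.10 to 0.39, with *Tyrp1* the closest partner. Each of the other 15 pairs was then lower, and the median of the 21 was 0.29. *Gpnmb* with the summed UMIs of the other 6 genes had 0.12 over all selected cells and 0.34 without the 17. The correlation was lower in the bulb than in early anagen for 21 of 21 pairs over all selected cells and for 20 of 21 without the marker-poor cells. The median over pairs of other genes was lower in the bulb too, at 0.018 against 0.138. The share of those pairs that were lower was not counted, so these counts are not a trait particular to the 7.

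**Figure D3:**
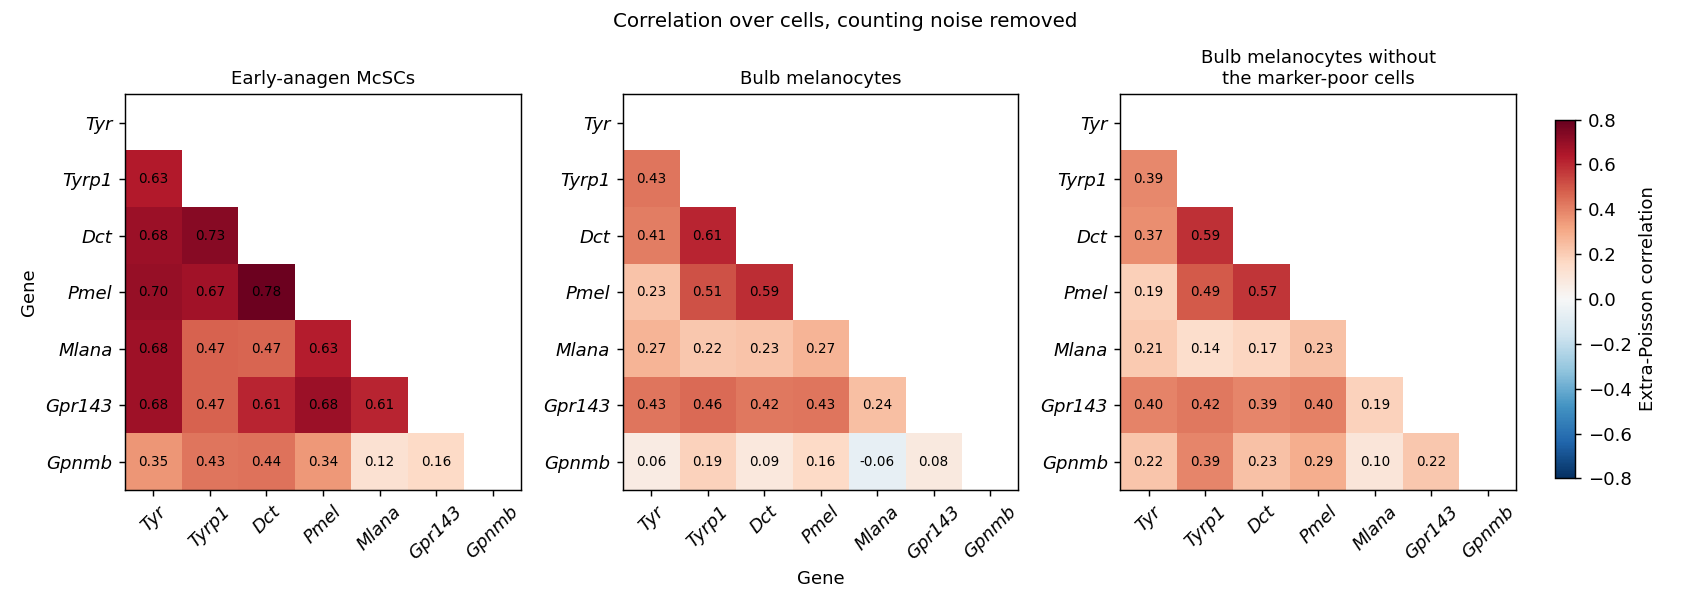
Correlation over cells of each pair of genes after counting noise was removed, in cells thinned to 5000 UMIs, for early-anagen McSCs, bulb melanocytes, and bulb melanocytes without the 17 marker-poor cells. Colour runs from -0.8 (blue) to 0.8 (red). The *Gpnmb* row is pale in the first bulb panel, -0.06 to 0.19, and darker in the second, 0.10 to 0.39.

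Cells were then ranked by the summed level of the 7 genes in one part of their UMIs and the genes measured in the remaining UMIs, so that the ranking and the measurement did not share counts. Between the lowest and highest quartile of early-anagen cells, *Gpr143* differed 10.6-fold, from 13.9 to 147 CPM. *Pmel* differed 6.10-fold, from 1395 to 8512 CPM, and *Tyr* 3.70-fold, from 281 to 1042 CPM. *Dct* differed 3.19-fold, *Mlana* 2.84-fold, *Tyrp1* 2.38-fold and *Gpnmb* 1.81-fold. The scarcest gene and the fibril gene thus changed most along the summed level and *Gpnmb* changed least. In bulb cells the same comparison gave 2.28-fold for *Pmel*, 1.84 for *Dct*, 1.55 for *Tyrp1*, 1.49 for *Gpr143*, 1.34 for *Tyr*, 1.30 for *Mlana* and 1.22 for *Gpnmb*.

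The top quartile of early-anagen cells did not reach the bulb level in most genes. *Dct* stood at 12798 CPM there against 10852 CPM in the lowest quartile of bulb cells, the 1 gene of the 7 for which the early-anagen value was the higher. *Pmel* came close, at 8512 against 8996 CPM. *Tyrp1* stood at 7848 against 10401 CPM, *Tyr* at 1042 against 1588.5, *Mlana* at 8785 against 17476, *Gpnmb* at 1318 against 2945, and *Gpr143* at 147 against 589. The share of cells scored S or G2/M was 56.8%, 54.6%, 38.1% and 14.7% from the lowest to the highest early-anagen quartile, so phase moved with the summed level, and the median UMIs per cell went from 26937 to 22471.

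**Figure D4:**
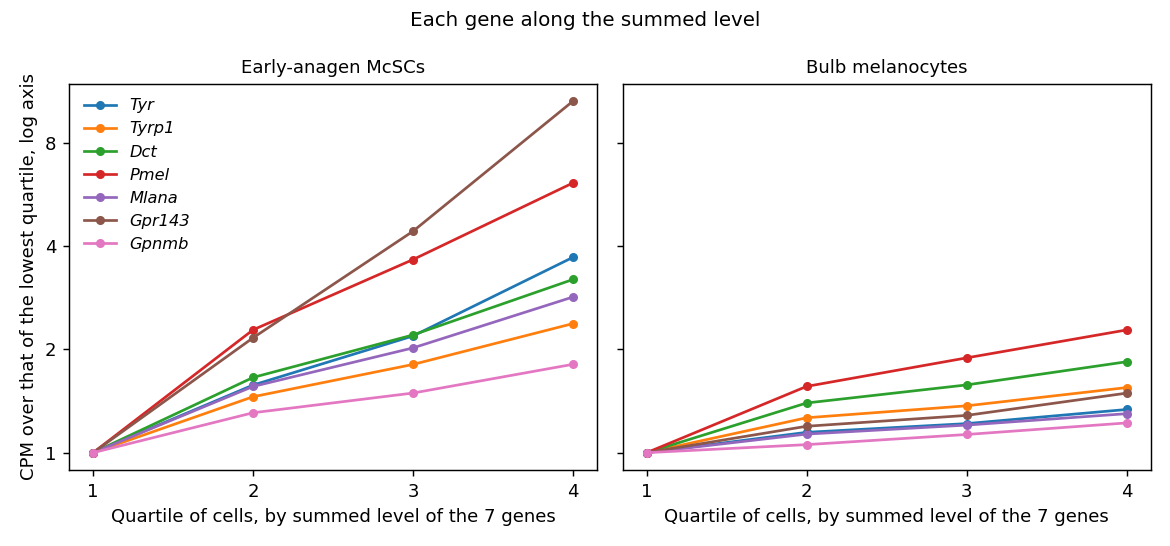
CPM of each gene in 4 quartiles of cells ranked by the summed level of the 7 genes, divided by the CPM in the lowest quartile, on a log axis. Left, early-anagen McSCs. Right, bulb melanocytes. From the lowest to the highest quartile *Gpr143* differs 10.6-fold and *Pmel* 6.10-fold in early anagen, against 1.49-fold and 2.28-fold in the bulb.

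Ratios between genes within a cell do not depend on how the cell was scaled. By the ratio of summed UMIs, 19 of the 21 pairs kept their direction between the libraries. The pairs that did not were *Dct* over *Mlana*, with a log2 ratio of 0.49 in early anagen and -0.36 in the bulb, and *Tyrp1* over *Pmel*, with 0.31 and -0.17. A shift of at least 2-fold in the ratio of sums was seen in 6 pairs, each of them a pair with *Gpr143*. Only 59 early-anagen cells held at least 10 UMIs of both genes of such a pair. Those cells are picked for high *Gpr143*, so the shift could not be checked within single cells. Other ratios were nearly equal in both libraries, such as *Tyr* over *Gpnmb* (log2 -0.81 and -0.80) and *Pmel* over *Mlana* (-0.37 and -0.42).

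The ratio of *Tyr* to *Tyrp1* was -3.22 on the log2 scale in early anagen and -2.85 in the bulb. In single cells with at least 10 UMIs of both, its median was -3.07 in 1694 early-anagen cells (10th to 90th percentile -3.82 to -2.34) and -2.88 in 3578 bulb cells (-3.49 to -2.27), a difference of 0.19 within broadly overlapping ranges. With at least 3 UMIs of both the difference was 0.43, since the higher minimum leaves out early-anagen cells with little *Tyr*. Among the 4 most abundant genes *Tyrp1* over *Dct* was the steadiest ratio in the bulb, with a standard deviation of 0.39 beyond counting noise, against 0.51 in early anagen. These standard deviations were also taken over cells with at least 10 UMIs of both genes. For each pair with *Gpr143* these were only 59 early-anagen cells. Among pairs without *Gpr143* the least steady in early anagen was *Pmel* over *Gpnmb*, with 1.02 (2415 cells) against 0.67 in the bulb (3677 cells). The least steady in the bulb was *Tyr* over *Pmel*, with 0.71 (3561 cells) against 0.73 in early anagen (1680 cells). For that pair the minimum left out early-anagen cells with little *Tyr*, so these values cover unlike parts of the libraries. For *Pmel* over *Mlana*, whose ratio of sums hardly moved, the standard deviation was 0.92 and 0.68, so equal averages went with a wide range among cells.

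The relation to the cell cycle was examined in early-anagen McSCs, of which 1642 were scored G1, 656 S and 487 G2/M. The median depth was 34710 UMIs for S and G2/M cells together (41.0% of cells) and 20053 for G1 cells, so cells were thinned to 10000 UMIs before levels were compared. All 7 genes were lower in S and G2/M cells than in G1 cells with an interval below 0, as were 35.3% of the 7802 genes with at least 10 CPM. The median log2 ratio of the 7 was -0.54, against -0.04 over the 7802 genes. Scarce genes have wide intervals, so shares that rest on an interval, here and below, are not a like-for-like background for abundant genes. *Gpr143* was the 1 gene of the 7 lower by at least 2-fold, at 38.2 against 78.9 CPM (log2 -1.05, -1.21 to -0.89), and 1.24% of genes were lower by that much.

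*Pmel* stood at 3472 CPM in S and G2/M cells and 5193 CPM in G1 cells, a log2 ratio of -0.58. *Dct* stood at 6459 and 9591 CPM (-0.57), *Tyr* at 451 and 655 CPM (-0.54), *Gpnmb* at 856 and 1168 CPM (-0.45) and *Tyrp1* at 4741 and 6193 CPM (-0.39). *Mlana* differed least, at 5017 and 5925 CPM (-0.24, -0.25 to -0.22). The share of the transcriptome given to these genes was thus smaller in cycling cells for all 7, and S cells and G2/M cells gave nearly the same medians, -0.51 and -0.51. The 1009 cells in which *Mki67* or *Top2a* was detected at 10000 UMIs were also compared with the rest. All 7 genes were again lower with an interval below 0, as were 27.5% of genes, and the median of the 7 was -0.40.

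Per cell, the comparison gave other values, since cycling cells held more UMIs. The mean number of UMIs per cell, with all UMIs counted, was higher in S and G2/M cells for 6 of the 7 genes, with log2 ratios of 0.40 for *Mlana*, 0.34 for *Tyrp1*, 0.28 for *Gpnmb*, 0.14 for *Dct*, 0.12 for *Tyr* and 0.08 for *Pmel*. *Gpr143* was lower per cell as well, at 1.35 against 1.82 UMIs, a log2 ratio of -0.43. The median of the 7 was 0.14, against 0.70 over all genes with at least 10 CPM. Most of those genes were thus higher per cell in S and G2/M cells, so being higher is not particular to the 7. The sign was not stable for 3 of the 7. Without the 10% of cells with the most UMIs, *Tyr* was at -0.075, *Dct* at -0.040 and *Pmel* at -0.093, and with no limit on *Krt10* and *Krt14* they were at -0.13, -0.10 and -0.14.

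**Figure D5:**
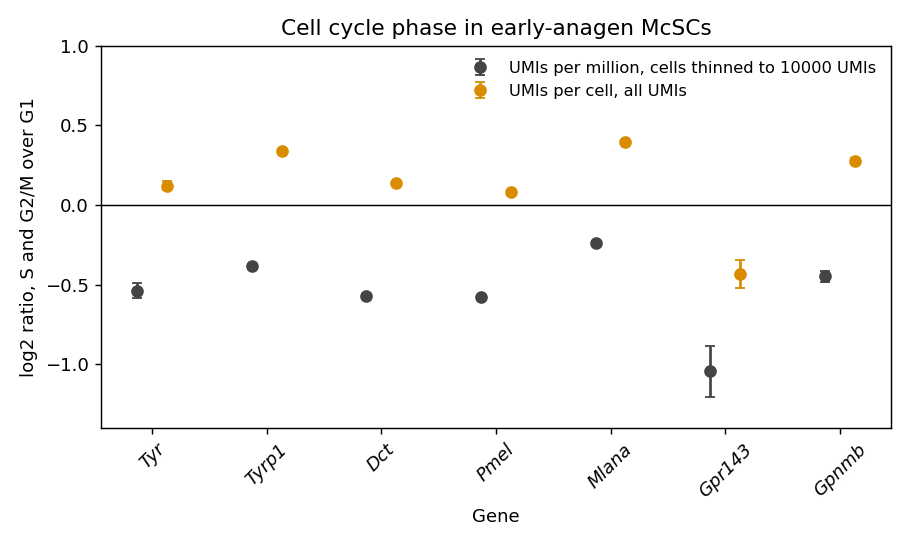
Ratio of S and G2/M cells to G1 cells for each gene in early-anagen McSCs, on a log2 scale, in CPM of cells thinned to 10000 UMIs (grey) and in mean UMIs per cell (orange). Bars are exact 95% counting intervals, mostly smaller than the points. In CPM, all 7 genes lie below 0, from -1.05 for *Gpr143* to -0.24 for *Mlana*, and per cell 6 of 7 lie above 0.

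In the bulb the phase scores could not be used, since 43.8% of cells were scored S or G2/M but only 3.30% of those had a UMI of *Mki67* or *Top2a*, at 5000 UMIs per cell, against 74.6% in early anagen at 10000. A UMI of either gene was found in 55 of 3734 bulb cells (1.47%, 1.11 to 1.91). These 55 cells had a median of 20233 UMIs, against 14214 in the rest, and gave 5.14% of their UMIs to the 7 genes, against 7.12%. All 7 genes were lower in them, with a median log2 CPM ratio of -0.55, against 0.06 over all genes with at least 10 CPM. Of 7500 such genes 6.95% were lower with an interval below 0. With only 55 cells the intervals of scarce genes were wide, so this share is no like-for-like background. *Dct* stood at 10313 against 15839 CPM (-0.62), *Pmel* at 9869 against 14979 CPM (-0.60) and *Tyrp1* at 8982 against 13605 CPM (-0.60). *Mlana* again had the smallest difference, at 17109 against 20390 CPM (-0.25, -0.29 to -0.21). In UMIs per cell *Mlana* was higher in the 55 cells (log2 0.23), and the other 6 lay between -0.14 and 0.05. The median over all genes with at least 10 CPM was 0.49 by this measure. This comparison was not repeated without the marker-poor cells, doublets were not removed, and the part of either was not tested. *Gpr143*, which differed most in early anagen, stood at -0.33 in CPM here (-0.56 to -0.10), and *Gpnmb* at -0.37 (-0.48 to -0.26). Their intervals overlapped that of *Mlana*, so which of these genes differed least in the bulb was not resolved.

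For the next comparison, mitochondrial genes, ribosomal protein genes named *Rpl* or *Rps* with a number, and clone or model names were left out. The genes whose level over cells was most like the sum of the 7 were sought among other genes with at least 1 UMI per cell. In early anagen these were *Atp6v0b* (correlation 0.73), *Bace2* (0.71), *Trpm1* (0.71), *Gabarap* (0.70) and *Ctsd* (0.69), the highest of 588 genes over 2785 cells. BACE2 is a protease that cuts PMEL, *Atp6v0b* encodes a proton pump subunit and *Trpm1* encodes a melanocyte ion channel. In the bulb they were *Glmp* (0.76), *Psap* (0.67), *Atp6v0c* (0.58), *Oca2* (0.58) and *Lamp1* (0.58), the highest of 551 genes over 3734 cells. *Psap*, *Glmp* and *Lamp1* encode lysosomal proteins and *Oca2* a melanosomal ion transport protein. Without the marker-poor cells the bulb values were 0.73, 0.64, 0.54, 0.57 and 0.56 in the order given. Those of early anagen were 0.73, 0.71, 0.71, 0.70 and 0.71. The lists themselves were not drawn up again without these cells. All 10 genes were at least 2-fold higher in the bulb, as were 16.3% of the 8020 genes with at least 10 CPM in either library. That share is no like-for-like background, since it does not use the minimum of 1 UMI per cell. The lowest ratio of the 10 was that of *Lamp1* (log2 1.03), just past the 2-fold limit. Since each list needed 1 UMI per cell in its own library, *Oca2* (25.1 CPM) and *Glmp* (169 CPM) were too low in early anagen to enter the first list. They passed the minimum only in the bulb, so the direction of their ratios is no finding.

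Other genes of the pathway, 29 in all, did not all follow the 7. At least 2-fold higher in the bulb were 5 of 6 transporters and channels, 3 of 10 cargo sorting genes and both genes of PMEL processing and sorting. Among regulators 1 of 7 was, and among genes of melanosome transport none of 4. These were 11 in all, beside 16.3% of all genes with at least 10 CPM. A cargo sorting gene among the 11 lay below that limit, at 1.73 and 3.78 CPM, and its interval (log2 0.80 to 1.45) crossed 2-fold. At least 2-fold lower were 3 regulators and 1 sorting gene, beside 28.7% of all genes with at least 10 CPM. The highest ratios were those of *Oca2*, at 25.1 against 554 CPM (log2 4.46), and *Rab38*, a small GTPase that routes tyrosinase-family enzymes to melanosomes, at 135 against 1682 CPM (3.64). The lowest were those of *Kit*, the stem cell factor receptor, at 486 against 108 CPM (-2.17), and *Pax3*, a lineage transcription factor, at 376 against 141 CPM (-1.41). *Mitf*, the main known activator of the enzyme genes, stood at 446 and 329.5 CPM (-0.44). The median over genes with at least 10 CPM was -0.19, and TMM factors raise every log2 ratio by 0.31. The size of the *Mitf* difference thus depended on the scaling, and its relation to the 7 genes was not tested.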

How the data were processed

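Per the labels and the study's methods, the authors sorted GFP+ cells, combined the cells of 4 mice per library, built droplet 3′ libraries and aligned reads to mm10 with Cell Ranger (6.0.1). The deposited values are raw UMI counts per gene and barcode, with no normalization, for 2 libraries. UMIs were summed over the selected cells and divided by their total (CPM). Ratios of sums have exact conditional intervals (95%, counting error only). Spread and correlation were computed in cells thinned without replacement to 5000 UMIs. Doublets were not removed. Phases were scored with Seurat (5.3.0) on cells thinned to 10000 UMIs (early anagen) or 5000 (bulb). TMM factors came from edgeR (4.0.16), as an alternative scaling only; no count model was fitted. Genes most like the 7 needed a variance at least 5% above counting noise. The functions were tested on simulated data. Python 3.11.15, scipy 1.17.1 and R 4.3.3 were used. The 7 genes, the marker and pathway lists and the tests were chosen with earlier results of these data known. Genes named are the 7, the 5 most like them per library, and the 2 highest and 2 lowest of the pathway list, with *Mitf* added after its values were seen. The alternatives changed 1 choice at a time (cell limits, scaling, depth, phase call), except that a minimum of 5000 UMIs also set the phase call to 5000 UMIs, and the one without marker-poor cells was added after seeing the data. One of the marker lists is not reported here.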

Additional observations from a re-analysis of the deposited data

Results flagged for a closer look

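A strong *Gpnmb* signal was found in 39 bulb barcodes that passed the UMI and mitochondrial limits but held at most 1 UMI of the 6 melanocyte markers. *Gpnmb* stood at 7702 CPM there, against 9.16 CPM in the 56 such cells of the early-anagen library, and its median over the 39 cells was 8034 CPM (lowest 0, highest 22509). The other 6 genes had a median of 4 UMIs in all per cell, against 91 UMIs of *Gpnmb*. Of these cells 17 had at least 1 *Dct* UMI and low keratins and so counted as melanocytes, with *Gpnmb* at 9920 CPM. What these cells are was not tested.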

How the results depend on the processing

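No paired analysis was possible because each condition had 1 library. The median log2 ratio of the 7 genes, bulb over early anagen (1.71), was 1.73 with a minimum of 5000 UMIs in both libraries, 1.69 with mitochondrial shares under 10%, 1.79 with no keratin limit, 1.74 with keratins at 0, 1.65 without the 10% of cells with the most UMIs, 1.56 with a total free of mitochondrial, ribosomal protein and member genes, 2.02 with TMM factors (which shift every gene by 0.31), 1.68 at 5000 UMIs and 1.52 in G1 cells. The G1 value rests in part on bulb phase scores, which could not be used as a measure of phase. The count of genes at least 2-fold higher was 6 or 7 throughout, with *Dct* the gene lost. The median CV was 0.52 in early anagen with no keratin limit. In the bulb (0.29) it was 0.27 with a minimum of 10000 UMIs, 0.31 with mitochondrial shares under 10%, 0.28 at 10000 UMIs and 0.25 without marker-poor cells. The median cell cycle log2 CPM ratio (-0.54) was -0.44 with both the minimum and the phase call at 5000 UMIs, -0.40 by *Mki67* or *Top2a* and -0.62 with all UMIs. In UMIs per cell (0.14) it was 0.17 with both at 5000 UMIs, 0.090 with mitochondrial shares under 10%, 0.16 with keratins at 0, 0.16 by *Mki67* or *Top2a* and 0.12 with the phase call alone at 5000 UMIs. It turned to -0.10 with no keratin limit (*Tyr* -0.13, *Dct* -0.10, *Pmel* -0.14) and to -0.040 without the 10% of cells with the most UMIs (*Tyr* -0.075, *Dct* -0.040, *Pmel* -0.093), and the cause was not tested. The difference in *Tyr* over *Tyrp1* (0.19) was 0.14 without the 10% of cells with the most UMIs and 0.43 with at least 3 UMIs of both. Counted over genes with a UMI in both libraries, 15.6% were at least 2-fold higher in the bulb. The median pair correlations moved by less than their spread. Depth limited *Gpr143* in early anagen, at 0.301 UMIs per cell of 5000.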

Other observations

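Within early-anagen McSCs the deepest quartile of cells (median 42397 UMIs) was lower than the shallowest (13965 UMIs) in *Dct*, at 6411 against 9192 CPM, *Tyrp1*, at 4690 against 6101 CPM, *Gpnmb*, at 879 against 1139 CPM, and *Pmel*, at 3623 against 4443 CPM. *Tyr*, *Mlana* and *Gpr143* differed by at most 0.07 on the log2 scale between these quartiles, but all were higher in the middle quartiles. From the shallowest to the deepest quartile, *Gpr143* stood at 50.3, 70.3, 71.7 and 49.9 CPM. *Tyr* stood at 499, 622, 650 and 520 CPM, and *Mlana* at 4829, 6008, 6342 and 5081 CPM. In the bulb the deepest quartile (20275 UMIs) was higher than the shallowest (10108.5 UMIs) in *Pmel*, at 16250 against 13401 CPM, and *Gpr143*, at 764 against 666 CPM. Depth and phase moved together in early anagen and their parts were not tested.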
